A study of Rattus norvegicus with 12 samples.

Results

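The genes of the rat major histocompatibility complex (MHC), which carry the prefix RT1, and the genes whose products load antigen onto MHC molecules were examined in cystic and healthy rat liver. All probe sets whose platform symbol begins with RT1 were taken, 37 in all, together with 13 of 14 listed antigen presentation genes, which makes 50 of 16592 named genes. The 14th, Nlrc5, had no probe set under that symbol. Whole-liver RNA came from 6 PCK rats, given by the labels as strain Crj:CD/SD with disease state PCK, and from 6 Sprague Dawley control rats. All animals were male, 10 weeks old and on a standard diet, with no drug treatment named. PCK rats carry a recessive mutation of Pkhd1, the gene of human autosomal recessive polycystic kidney disease, and grow cysts in the kidney and the bile ducts. The controls came from a colony labelled differently, so the Pkhd1 mutation and any other inherited difference between the colonies cannot be told apart. Each value is the log2 signal of 1 probe set on 1 Affymetrix array, and 1 array was run for each animal.

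Class I molecules, made of an RT1 heavy chain and the light chain B2m, show peptides from inside the cell to cytotoxic T cells. The peptides are cut by the proteasome, carried into the endoplasmic reticulum by the transporter Tap1 and Tap2, trimmed by Erap1 and loaded with the help of Tapbp, Calr, Canx and Pdia3. Class II molecules are pairs of an alpha and a beta RT1 chain that travel with the invariant chain Cd74, exchange it for a peptide with the help of RT1-DM, and show that peptide to helper T cells. In liver, class I is carried by nearly all cells, while class II is mainly a property of macrophages, dendritic cells and B cells. RT1 genes differ greatly between rat haplotypes in sequence and in number, and Sprague Dawley rats are outbred.

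Promoter sequences of the genes on which the results turn are shown first, because class I and class II genes are known for shared promoter elements. RefSeq promoters of build GRCr8 were found for 43 of the 50 genes, and the 250 bases before the start were searched on both strands. Erap1, Ciita, Pdia3, RT1-DMb, RT1-CE7, RT1-M1-4 and RT1-M4 had no promoter there and were not searched. The interferon-stimulated response element was searched as GAAA, any 2 bases and GAAA, its minus-strand form being TTTC, any 2 bases and TTTC. TGACNNCA is a loose form of the X2 element of MHC promoters, and CCAAT is the core of their Y element, which reads ATTGG on the other strand. Matched letters are in capitals, and the sequences run 5′ to 3′ towards the start. The Tap1 window lies at chr20:4668544-4668793 (minus strand), that of Tapbp at chr20:4967878-4968127 (minus strand), that of RT1-S3 at chr20:2675278-2675527 (plus strand), that of B2m at chr3:129549080-129549329 (plus strand), that of RT1-Ba at chr20:4576807-4577056 (plus strand) and that of RT1-DMa at chr20:4712336-4712585 (minus strand).
Tap1 promoter: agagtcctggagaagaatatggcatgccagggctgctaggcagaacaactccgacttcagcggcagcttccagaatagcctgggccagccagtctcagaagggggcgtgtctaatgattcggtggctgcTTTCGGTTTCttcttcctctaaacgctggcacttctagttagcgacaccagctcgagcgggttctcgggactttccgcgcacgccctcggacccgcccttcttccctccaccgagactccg
Tapbp promoter: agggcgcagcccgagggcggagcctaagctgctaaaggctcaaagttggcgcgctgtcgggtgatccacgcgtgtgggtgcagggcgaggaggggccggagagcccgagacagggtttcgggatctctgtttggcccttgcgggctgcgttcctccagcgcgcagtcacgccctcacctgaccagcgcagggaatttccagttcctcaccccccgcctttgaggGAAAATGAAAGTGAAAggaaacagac
RT1-S3 promoter: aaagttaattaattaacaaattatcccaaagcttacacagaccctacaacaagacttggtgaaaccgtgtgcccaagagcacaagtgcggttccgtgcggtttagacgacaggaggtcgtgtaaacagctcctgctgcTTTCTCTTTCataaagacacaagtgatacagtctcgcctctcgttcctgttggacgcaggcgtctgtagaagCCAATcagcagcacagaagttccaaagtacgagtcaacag
B2m promoter: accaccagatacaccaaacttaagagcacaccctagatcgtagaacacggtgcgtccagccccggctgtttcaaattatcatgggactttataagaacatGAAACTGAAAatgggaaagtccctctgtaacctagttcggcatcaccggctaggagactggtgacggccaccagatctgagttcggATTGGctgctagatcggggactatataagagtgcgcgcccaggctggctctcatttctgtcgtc
RT1-Ba promoter: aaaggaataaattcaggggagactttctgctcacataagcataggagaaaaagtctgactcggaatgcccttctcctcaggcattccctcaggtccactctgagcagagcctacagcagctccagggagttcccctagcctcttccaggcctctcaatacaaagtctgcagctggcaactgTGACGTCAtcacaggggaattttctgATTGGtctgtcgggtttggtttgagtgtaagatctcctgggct
RT1-DMa promoter: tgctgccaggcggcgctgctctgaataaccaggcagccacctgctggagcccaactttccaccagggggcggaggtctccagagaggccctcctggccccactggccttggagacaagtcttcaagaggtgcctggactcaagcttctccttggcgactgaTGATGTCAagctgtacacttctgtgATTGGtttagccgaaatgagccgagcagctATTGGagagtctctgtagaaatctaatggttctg
The interferon-stimulated pattern occurred in 8 of the 43 windows, those of Tap1, Tap2, Tapbp, B2m, Fcgrt, RT1-S2, RT1-S3 and RT1-N3, and in 3.32% of 27457 rat promoters. In Tapbp there were 2 overlapping matches. The pattern is exact and misses near forms. TTTCACTTCT, which it does not match, stood in the windows of RT1-A1, RT1-A2, RT1-A3, RT1-CE3, RT1-CE5, RT1-CE10 and RT1-T18. Near forms were not counted over all promoters, so a window without a match may still hold a form of the element. CCAAT was found in 30 of the 43 windows against 34.2% of all promoters, and TGACNNCA in 11 of the 43, all of them RT1 genes, against 16.8%. The TGACNNCA count took no account of its place relative to CCAAT. In RT1-A2, RT1-A3, RT1-CE3, RT1-CE4, RT1-CE5 and RT1-CE10 the only match, reading TGAGGTCA, lay far upstream of CCAAT or ATTGG. In RT1-Ha and RT1-T24-3 the match lay downstream of ATTGG. RT1-A1, RT1-Ba and RT1-DMa had a match shortly ahead of ATTGG. The full TGACGTCA, which also counts as TGACNNCA, was met once among the 43, in RT1-Ba, with ATTGG downstream of it, and in 1.68% of all promoters. RT1-DMa had the same order of elements, with TGATGTCA ahead of ATTGG. These are letter matches in the reference strain and do not show binding in these livers.

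Tap1, Tap2, Tapbp, Erap1, Canx, Cd1d1 and Mr1 were higher in PCK livers, while B2m, Calr, Pdia3, Cd74, Ciita and Fcgrt did not pass the test. Among the 13 measured loading and related genes 7 were higher in PCK livers and none was lower at a limma adjusted p under 0.05, where 17.4% of all genes were called higher and 21.0% lower. Of the 11 with a group mean above the median signal of the whole table, 5.66, 6 were higher and 0 lower. Among all genes above that median 24.3% were higher and 30.5% lower. Leaving out PCK 6 or control 2 gave 1 lower gene, Fcgrt or Ciita. The groups did not overlap in 6 of the 13, PCK above control in each, where 11.0% of all genes lay wholly above. The median change of the 13 was 0.16 (log2), against -0.0067 over all genes. At least 1.5-fold was reached by 4 genes: Tap1, Tapbp, Erap1 and Cd1d1.

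Tap1 is the first subunit of the peptide transporter of the endoplasmic reticulum. Its signal ran from 7.58 to 8.01 in PCK livers with a median of 7.71, and from 6.55 to 7.17 in controls with a median of 6.88. Every PCK liver lay above every control liver, and the rise was 0.91 ± 0.11 (log2 ± SE; adjusted p = 6.1e-05 by limma).
The second subunit, Tap2, rose less. Its PCK values were 6.31 to 6.57 (median 6.46) and its control values 5.98 to 6.23 (median 6.11), again without overlap, a rise of 0.34 ± 0.051 (log2 ± SE; adjusted p = 0.00032 by limma).
Tapbp encodes tapasin, the bridge between the transporter and the class I heavy chain. It ran from 7.67 to 8.15 (median 8.01) in PCK and from 6.94 to 7.17 (median 7.04) in control livers, and rose by 0.90 ± 0.089 (log2 ± SE; adjusted p = 1.7e-05 by limma). The control values of Tapbp were packed within a narrow band, and the lowest PCK liver was clearly above it.
Erap1, the aminopeptidase that trims peptides to class I length, had PCK values of 9.39 to 9.58 (median 9.50) and control values of 8.52 to 8.98 (median 8.72). It rose by 0.74 ± 0.069 (log2 ± SE; adjusted p = 1.2e-05 by limma), with no overlap between the groups.

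B2m, the light chain shared by all class I molecules, was near the top of the signal range in both groups. Its values were 13.42 to 13.47 (median 13.45) in PCK and 13.37 to 13.49 (median 13.44) in control livers. The groups overlapped fully, and the difference of 0.013 ± 0.018 (log2, SE) did not pass the test (limma adjusted p = 0.61). The highest signal of the table was 13.98, and whether the array could show a rise so near its top was not tested.
The general chaperones of the endoplasmic reticulum, which also fold many secreted proteins, gave small differences. Canx, encoding calnexin, was 12.33 to 12.49 (median 12.40) in PCK and 12.18 to 12.35 (median 12.29) in control livers. The groups overlapped slightly and the rise was 0.12 ± 0.035 (log2 ± SE; adjusted p = 0.021 by limma).
Calr, encoding calreticulin, was 12.58 to 12.68 (median 12.65) against 12.17 to 12.63 (median 12.51), a difference of 0.16 ± 0.065 (log2 ± SE; adjusted p = 0.074 by limma). Control 5 was the low one of this gene. Pdia3, a disulfide isomerase of the loading complex, was 12.95 to 13.06 (median 12.99) against 12.72 to 13.03 (median 12.90), a difference of 0.11 ± 0.042 (log2 ± SE; adjusted p = 0.062 by limma). Neither passed the test with all 12 livers.

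**Figure D1:**
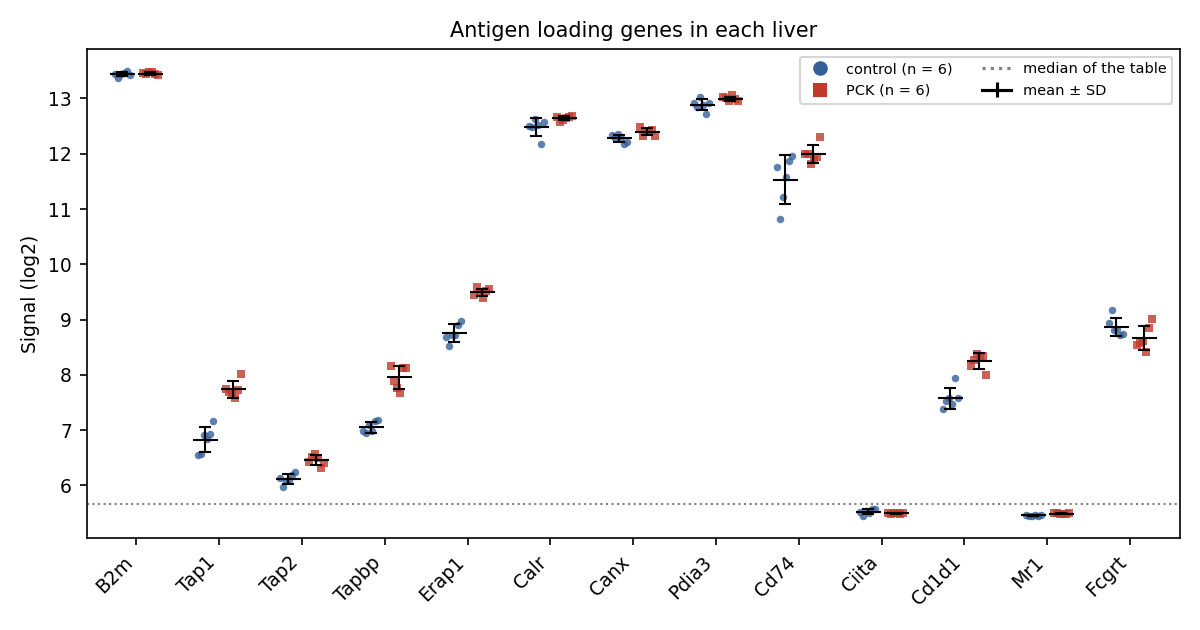
Log2 signal of the 13 measured loading and related genes, with 1 point for each liver (blue circles control, red squares PCK, n = 6 each) and black bars for the mean ± SD; the dotted line is the median of the whole table, 5.66. Tap1, Tap2, Tapbp, Erap1 and Cd1d1 show PCK points wholly above control points, and B2m shows none of this separation.

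Among the class I-like genes, Cd1d1, which presents lipids to natural killer T cells, rose by 0.67 ± 0.093 (log2 ± SE; adjusted p = 0.00019 by limma). Its PCK values were 7.99 to 8.38 (median 8.30) and its control values 7.39 to 7.94 (median 7.55). The groups met closely, since control 5, at 7.94, lay just under the lowest PCK liver.
Mr1 presents microbial vitamin B metabolites to mucosal-associated T cells. It was 5.47 to 5.50 (median 5.49) in PCK and 5.45 to 5.47 (median 5.46) in control livers, a difference of 0.033 ± 0.0073 (log2 ± SE; adjusted p = 0.0038 by limma). The spread was very small and the signal below the median of the table. No detection calls were used, so whether such a signal stands above background was not tested.
Fcgrt, the neonatal Fc receptor that recycles IgG and albumin, was 8.42 to 9.0 (median 8.59) in PCK and 8.73 to 9.16 (median 8.81) in control livers. The ranges overlapped, and the difference of -0.20 ± 0.11 (log2, SE) did not pass the test (limma adjusted p = 0.16). Without PCK 6 it was -0.27 (limma adjusted p = 0.047). In the 11 other fits without 1 liver it did not pass (highest limma adjusted p = 0.31, without control 2).

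The master regulators were measured poorly. Ciita, the transactivator of class II genes, lay at 5.48 to 5.50 (median 5.50) in PCK and 5.45 to 5.57 (median 5.52) in control livers, below the median of the table, and its difference was -0.029 ± 0.019 (log2 ± SE; adjusted p = 0.26 by limma). For Nlrc5, the transactivator of class I genes, the RefSeq table gives its symbol to the gene identifier of a probe set that the platform lists as Cpne2. That probe set was at 5.78 ± 0.047 in PCK and 5.70 ± 0.046 in control livers (log2, SD, n = 6 each), a difference of 0.076 ± 0.026 that was called higher (log2 ± SE; adjusted p = 0.037 by limma). Which of the 2 genes it reads is not known here.

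Of the 37 RT1 genes 6 were higher and 2 lower in PCK livers at a limma adjusted p under 0.05, or 16.2% and 5.41%, beside 17.4% and 21.0% of all genes. None of the 8 changed by 1.5-fold. The groups did not overlap in 4, RT1-S3 above and RT1-N2, RT1-Db2 and RT1-Ha below, beside 11.0% of all genes wholly above and 10.6% wholly below. The median change of the 37 was -0.0080 (log2), next to -0.0067 over all genes. Signal was low for many of them: 17 had both group means below the median of the table. Among the 20 others 4 were higher and 1 lower, beside 24.3% and 30.5% of all genes with a group mean above that median. Leaving out 1 liver at a time moved the count of higher RT1 genes between 2 and 7, with 2 when control 2 was left out and 3 without PCK 5, PCK 6, control 1, control 3 or control 4. The RT1 values below were chosen after they had been seen, except those of RT1-N2 and RT1-Bb.

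The 3 classical class I genes, which present peptides to cytotoxic T cells, did not move together. RT1-A3 rose by 0.42 ± 0.14 (log2 ± SE; adjusted p = 0.034 by limma), from a control range of 7.81 to 8.66 (median 8.18) to a PCK range of 8.39 to 8.84 (median 8.60). The ranges overlapped, and the call was lost in 7 of 12 fits that left out 1 liver (highest limma adjusted p = 0.072, without control 2). RT1-A1, at 7.14 ± 0.14 in PCK and 7.13 ± 0.20 in control livers (log2, SD, n = 6 each), and RT1-A2, at 8.28 ± 0.086 and 8.31 ± 0.29, gave differences of 0.012 and -0.028 (limma adjusted p = 0.94 and 0.88). These genes are close copies of each other, and probes made for 1 haplotype may read its neighbours or miss another allele, so each value is that of a probe set and not surely of a single gene.

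RT1-S3, a class I gene of the RT1 region away from the classical genes, had the only RT1 probe set with all PCK livers above all controls. Its values were 10.41 to 10.70 (median 10.56) in PCK and 9.59 to 10.38 (median 10.27) in control livers, and it rose by 0.40 ± 0.12 (log2 ± SE; adjusted p = 0.019 by limma). Control 2, at 9.59, stood below the 5 other controls, and without it the rise was 0.29 (limma adjusted p = 0.0025).
Of the 7 RT1-CE genes, a cluster of class I genes of the same region, RT1-CE4 rose by 0.40 ± 0.075 (log2 ± SE; adjusted p = 0.0015 by limma), with PCK values of 6.99 to 7.43 (median 7.24) and control values of 6.66 to 7.01 (median 6.81). The groups touched at their edges. RT1-CE3 was lower by a small amount, -0.092 ± 0.032 (log2 ± SE; adjusted p = 0.039 by limma). The call of RT1-CE3 was lost in 8 of 12 fits without 1 liver (highest limma adjusted p = 0.082, without PCK 3). The 5 others, RT1-CE1, RT1-CE2, RT1-CE5, RT1-CE7 and RT1-CE10, did not pass the test.
All 8 RT1-M genes, among them RT1-M3-1, whose mouse counterpart presents formylated bacterial peptides, had group means below the median of the table, and no value of theirs exceeded 5.67. RT1-M3-1 and RT1-M6-1 were called higher by 0.041 and 0.093 (log2; limma adjusted p = 0.0496 and 0.032), small differences at a low signal. Their calls were lost in 9 and 6 of 12 fits without 1 liver (highest limma adjusted p = 0.0996 and 0.065). RT1-O1, RT1-N3, RT1-S2, RT1-T18 and the RT1-T24 genes did not pass the test.

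**Figure D2:**
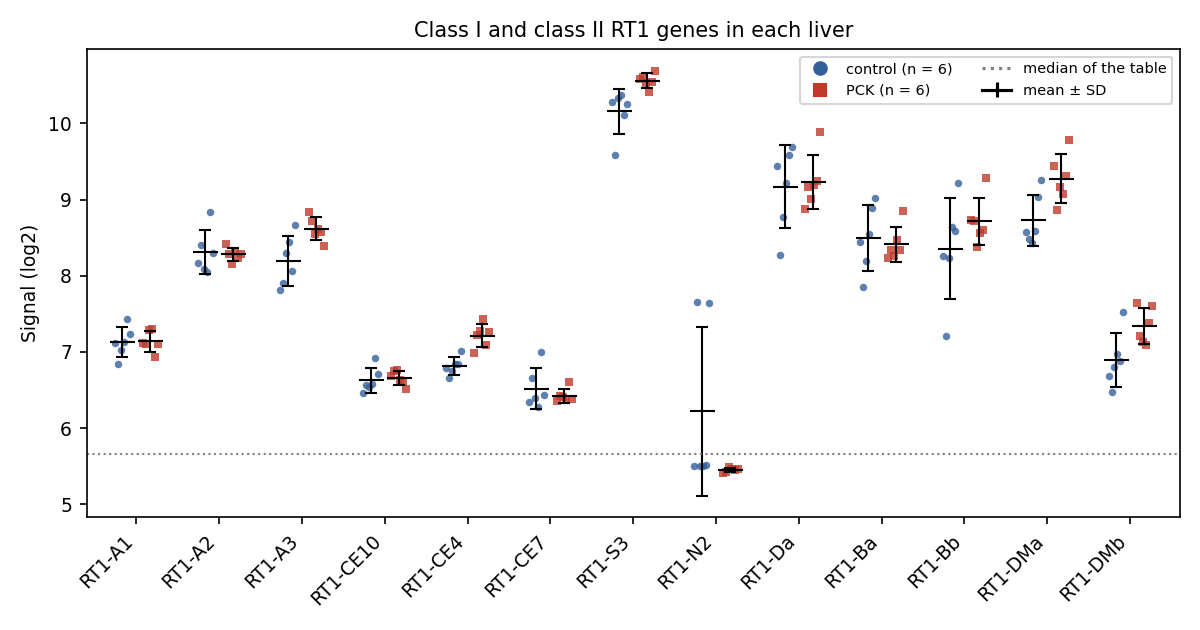
Log2 signal of 13 RT1 genes, 8 of class I on the left and 5 of class II on the right, with 1 point for each liver (blue circles control, red squares PCK, n = 6 each) and black bars for the mean ± SD. RT1-S3 separates the groups, RT1-N2 has 2 control points far above all others, and the class II chains overlap with wide control bars.

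RT1-N2, a class I gene beside RT1-T18 and RT1-S2, showed 2 levels among the control livers. Control 2 was at 7.66 and control 6 at 7.65, while controls 1, 3, 4 and 5 were at 5.51, 5.50, 5.50 and 5.51. The PCK livers were at 5.41, 5.42, 5.48, 5.46, 5.45 and 5.46. A probe set was counted as having 2 levels when the widest step between neighbouring sorted values of a group was at least 1 log2 unit and more than 50% of the group's range. The step of RT1-N2 was 2.13 of a range of 2.16. All PCK livers lay below all controls, yet by only a small margin against the 4 low controls, and the difference of -0.77 ± 0.43 (log2, SE) did not pass the test (limma adjusted p = 0.18). At the low level the signal was under the table's median, and whether it stands above background was not tested. The sequence and the presence of this gene in each animal were not measured.

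RT1-Bb, the beta chain of the class II molecule equivalent to human DQ, met the same definition by a narrow margin. Its control values were 8.25, 7.21, 8.24, 8.64, 8.58 and 9.21 in controls 1 to 6, so that control 2 alone was low. Its step was 1.03 of a range of 2.0, and without control 2 it no longer had 2 levels. Its PCK values, 8.74, 8.72, 8.38, 8.56, 8.61 and 9.28, did not have 2 levels, and the difference of 0.36 ± 0.28 (log2, SE) did not pass the test (limma adjusted p = 0.36). By this definition 2 of the 37 RT1 genes had 2 levels among controls and none among PCK livers, where 0.181% of all genes, 30 in number, did so among controls and 0.0904% among PCK livers. No loading gene had 2 levels in either group. Control 2 and control 6, the high livers of RT1-N2, were the lowest and the highest of RT1-Bb, so the 2 genes did not divide the controls alike, and none of the 28 other genes with 2 levels set controls 2 and 6 apart from the rest.

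**Figure D3:**
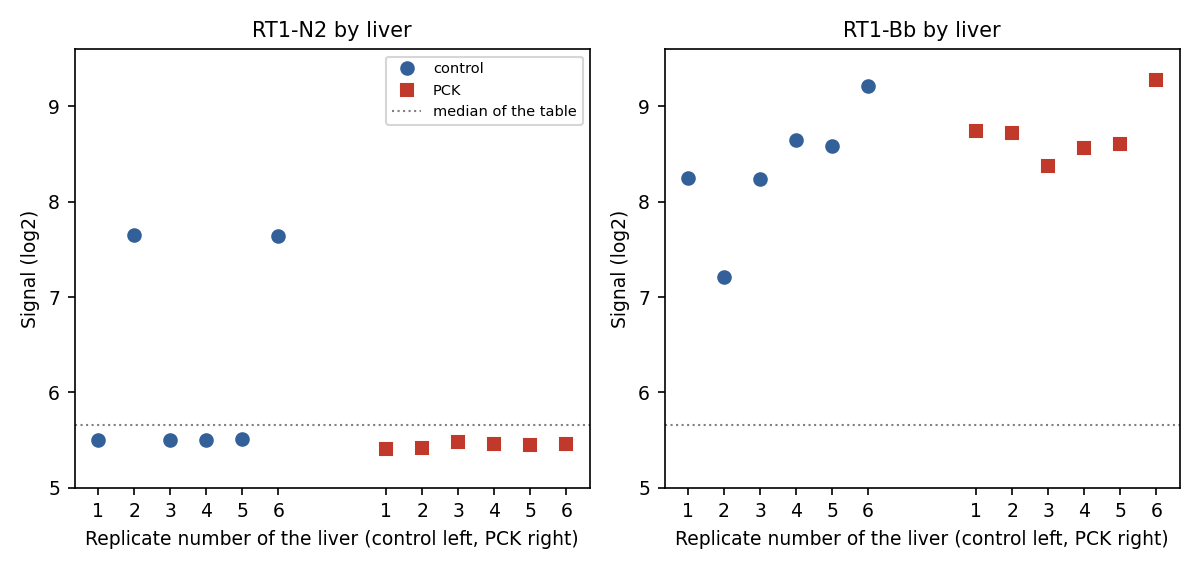
Log2 signal of RT1-N2 (left) and RT1-Bb (right) in each liver by replicate number, controls as blue circles and PCK livers as red squares, on a common axis with the median of the table dotted. For RT1-N2 controls 2 and 6 stand at 7.66 and 7.65 and the 10 other livers below the dotted line; for RT1-Bb only control 2 stands apart.

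Of the 10 class II genes 1 rose, RT1-DMa, and 1 fell, RT1-Db2, no larger a share than the 17.4% and 21.0% of all genes. RT1-DMa and RT1-DMb encode the exchange factor that removes the Cd74 remnant from class II molecules. RT1-DMa had PCK values of 8.86 to 9.78 (median 9.24) and control values of 8.43 to 9.25 (median 8.58), a rise of 0.54 ± 0.18 (log2 ± SE; adjusted p = 0.032 by limma). The groups overlapped because control 6 reached 9.25 and control 5 reached 9.04, and the call was lost in 7 of 12 fits without 1 liver (highest limma adjusted p = 0.067, without control 3). RT1-DMb gave 7.09 to 7.64 (median 7.29) against 6.48 to 7.53 (median 6.84), a difference of 0.45 ± 0.17 (log2 ± SE; adjusted p = 0.052 by limma); without control 6 it was 0.58 (limma adjusted p = 0.0048). RT1-DMb passed in 2 of 12 fits without 1 liver and not in the 10 others (highest limma adjusted p = 0.11, without PCK 6). Both members of the pair gave higher PCK medians, with 1 of them past the threshold.

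Cd74, the invariant chain, was 11.81 to 12.30 (median 11.97) in PCK and 10.81 to 11.96 (median 11.67) in control livers. The difference of 0.46 ± 0.18 (log2, SE) did not pass the test (limma adjusted p = 0.067). It passed without control 5 or without control 6 (limma adjusted p = 0.049 and 0.036). In the 10 other fits without 1 liver it did not pass (highest limma adjusted p = 0.14, without PCK 6).
The peptide-presenting chains gave smaller differences: 0.064 ± 0.25 for RT1-Da, the DR-like alpha chain, and -0.078 ± 0.19 for RT1-Ba, the DQ-like alpha chain (log2 ± SE; adjusted p = 0.87 and 0.79 by limma). RT1-Da ran from 8.88 to 9.89 (median 9.18) in PCK and from 8.28 to 9.69 (median 9.33) in control livers, and RT1-Ba from 8.23 to 8.85 (median 8.34) and from 7.85 to 9.02 (median 8.50). In both genes the groups overlapped; the RT1-Ba values of PCK livers lay inside the control range, and of RT1-Da only PCK 6, at 9.89, exceeded it. The beta chain probe sets RT1-Db1 and RT1-Db2 were near the median of the table; RT1-Db2 was lower by 0.059 ± 0.013 (log2 ± SE; adjusted p = 0.0040 by limma), a small difference at a signal of 5.54 ± 0.013 in PCK and 5.60 ± 0.028 in control livers (log2, SD, n = 6 each). RT1-DOa, RT1-DOb, whose products restrain RT1-DM in B cells, and the DP-like RT1-Ha did not pass the test.

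Among controls the same livers were at the extremes of several class II genes. Control 2 was the lowest control for Cd74, RT1-Da, RT1-Ba, RT1-Bb and RT1-DMb and the second lowest for RT1-DMa. Control 6 was the highest control for all 6 genes, and PCK 6 the highest PCK liver for 5 of them, RT1-DMb being the exception. At the low end of the PCK livers, PCK 3 was the lowest for RT1-Bb and Cd74 and the second lowest for RT1-Da, RT1-Ba and RT1-DMb. PCK 1 was the lowest for RT1-Da and RT1-Ba and the highest for RT1-DMb. The mean log2 signal of 15 measured macrophage and Kupffer cell markers was lowest in control 2 (7.76) and highest in PCK 6 (8.84). It stood at 8.20 in control 6 and at 8.28 in control 5. In other livers the orders differed. PCK 3 was at 8.56, above PCK 4, the lowest PCK liver, at 8.41. Control 1 was at 7.88, with Cd74 and RT1-Da, at 11.76 and 9.45, above their control medians. Dendritic cell markers were also lowest in control 2, at 5.61, and highest in PCK 6, at 5.73. Bile duct markers were highest in PCK 6, at 6.94. B and plasma cell markers and T and NK cell markers were highest in control 6, at 5.72 and 5.46. No relation of class II genes to these lists was tested. In whole liver, fewer cells of a type and less RNA per cell cannot be told apart. The SD was larger in control than in PCK livers for 38 of the 50 genes, among them 9 of 10 class II genes, beside 56.0% of all genes.

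**Figure D4:**
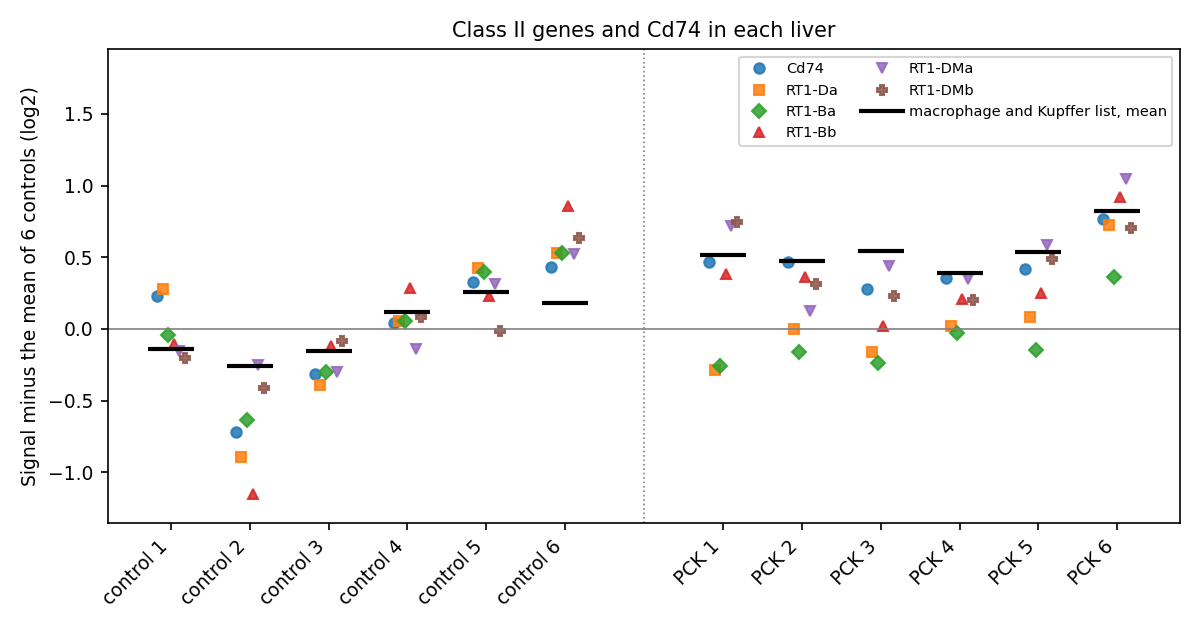
Signal of Cd74 and 5 class II genes in each liver minus the mean of the 6 controls (log2), with a black bar for the mean of the macrophage and Kupffer cell marker list on the same scale. The other marker lists are not drawn. Control 2 is low and control 6 and PCK 6 are high for most of the genes; in PCK livers the black bar lies above the controls' mean in all 6.

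Markers of other cells were compared beside these results, where 17.4% of all genes were called higher and 21.0% lower. Macrophage and Kupffer cell markers were higher in PCK livers for 11 of 15 genes and lower for none, led by Lyz2 (2.35), Clec4f (0.83) and C1qb (0.72; changes in log2). Mrc1 (-0.15), Cd163 (-0.080), Fcgr1a (0.32) and Spi1 (0.093, changes in log2) did not pass the test. The summed linear signal of the 15 ran from 8556 to 11412 in PCK and from 4305 to 6627 in control livers. Lyz2, the brightest of the 15 in PCK livers, weighs most in the PCK sums. Of the 15 Itgam lay below the median of the table in both groups. Bile duct markers were higher for 9 of 11, led by Krt19 (1.88), Tspan8 (1.54) and Epcam (0.90, changes in log2). Their sums were 1860 to 2468 against 1485 to 1776, with Cftr and Cldn7 below the median of the table. Cdh1, at 10.11 in PCK and 10.05 in control livers (log2 means), weighs most in these sums and did not pass the test. Dendritic cell markers went both ways, 3 of 11 higher and 2 lower, with sums of 567 to 622 against 553 to 588 and 6 of the 11 below the median, Flt3, Zbtb46, Clec9a and Itgax among them. B and plasma cell markers gave 1 of 10 higher and 2 lower, with sums of 478 to 499 against 482 to 536, the highest in control 6, and Ms4a1 and Cd79a below the median. T and NK cell markers gave 1 of 15 higher and 2 lower, with sums of 639 to 653 against 641 to 663, and 13 of the 15 below the median, Cd3e among them. Sinusoidal endothelial markers gave 1 of 8 higher and 3 lower, with sums of 2789 to 3410 against 3213 to 3916 and Pecam1 below the median. The hepatocyte markers were bright in all livers, with 4 of 10 lower and none higher in PCK. Their sums, 103536 to 106329 against 107368 to 111201, did not overlap. Alb and Tf, the brightest of the 10, weigh most in these sums. Alb stood at 13.98, the highest signal of the table, in every liver, and Tf at 13.88 in every PCK liver. Whether signals so near the top could show a difference was not tested. The part of any of these cells in the changes of the RT1 and loading genes was not tested.

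Among other genes of the class I route the immunoproteasome subunits, which cut peptides suited to class I, rose most. Of 20 measured partners of class I loading beyond the 13 genes, 8 were higher and 1 lower, beside 17.4% and 21.0% of all genes. The shares were 24.3% and 30.5% of genes above the median of the table, where all 20 lay. Their median change was 0.068 (log2). Values in PCK livers were 10.61 to 10.94 and in control livers 7.89 to 9.26 for Psmb9, 7.75 to 8.22 and 6.48 to 6.84 for Psmb10, and 9.69 to 9.95 and 8.12 to 9.17 for Psmb8, none of them overlapping. The rises were 2.12 ± 0.19, 1.33 ± 0.098 and 1.09 ± 0.14 in that order (log2 ± SE; adjusted p = 7.5e-06, 2.4e-06 and 0.00011 by limma). The tapasin-related Tapbpl, a peptide editor, rose by 0.67 ± 0.068 and Lnpep, an aminopeptidase of endosomal class I loading, by 0.61 ± 0.061 (log2 ± SE; adjusted p = 2.0e-05 and 1.8e-05 by limma). Tpp2, a cytosolic peptidase, was the lower one, at -0.30 ± 0.084 (log2 ± SE; adjusted p = 0.015 by limma). These 3 were named after their values were seen, as were Rfx5, Rfxap, Rfxank, Nfya, Nfyc, Creb1, Ifng and Ubd below.

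Class II route genes beyond the members were higher for 11 of 20 and lower for 3, with a median of 0.23 (log2). The shares beside them were 17.4% and 21.0% of all genes, and 24.3% and 30.5% of genes above the median of the table. Of the 20 only Creb1 lay below that median in both groups. Cd63, a tetraspanin of the late endosomes where class II is loaded, rose by 1.28 ± 0.14, and Ifi30, the lysosomal thiol reductase that opens disulfide bonds of antigens, by 0.69 ± 0.12 (log2 ± SE; adjusted p = 3.1e-05 and 0.00086 by limma). Nfyb, a subunit of the factor that binds CCAAT, fell by 0.62 ± 0.13 (log2 ± SE; adjusted p = 0.0037 by limma). Of the other factors that bind class II promoters, Rfx5 rose by 0.28, Rfxap fell by 0.18 and Nfya, another subunit of the CCAAT factor, fell by 0.11, while Rfxank (-0.0093), Nfyc (0.041) and Creb1 (-0.035) did not pass the test (log2; limma adjusted p = 0.0010, 0.019 and 0.047 for the first 3).
Upstream regulators were higher for 7 of 23 and lower for none, beside 17.4% and 21.0% of all genes and 24.3% and 30.5% of genes above the median of the table, with a median change of 0.043 (log2). Both chains of the interferon gamma receptor rose, Ifngr2 by 0.78 ± 0.065 and Ifngr1 by 0.52 ± 0.065, and Nfkb2, an NF-kB subunit, by 0.75 ± 0.042 (log2 ± SE; adjusted p = 5.3e-06, 9.8e-05 and 4.2e-07 by limma). The signal of Ifng itself, 5.27 ± 0.014 in PCK and 5.28 ± 0.0092 in control livers (log2, SD, n = 6 each), was below the lower quartile of the table, 5.36.
Partner receptors and co-stimulatory molecules were higher for 5 of 14 and lower for 1, beside 17.4% and 21.0% of all genes, with 9 of the 14 below the median of the table. Icam1, the adhesion ligand of T cells, rose by 1.26 ± 0.091, Cd4, which binds class II and which rat macrophages also carry, by 0.82 ± 0.16, and Cd274, the inhibitory ligand PD-L1, fell by 0.42 ± 0.080 (log2 ± SE; adjusted p = 2.1e-06, 0.0016 and 0.0017 by limma).

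In the RefSeq order of chromosome 20 all 37 RT1 genes lie in 1 stretch with 150 measured genes, among them Tap1 and Tap2. Of the 111 others 25 were higher (22.5%) and 17 lower (15.3%), beside 17.4% and 21.0% of all genes, and the groups did not overlap in 20 (18.0%), beside 21.6%. Their median change was -0.0088 (log2), and none had 2 levels in either group. Tap2, Psmb8, Tap1 and Psmb9 are neighbours there without a measured gene between them, and all 4 rose, while the class II genes RT1-Bb and RT1-DOb just before them did not pass the test. RT1-DMb and RT1-DMa follow directly. Ubd, a ubiquitin-like modifier near the opposite end, had the largest change of the stretch, from 5.96 in control to 9.06 in PCK livers (log2 means, n = 6 each).

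**Figure D5:**
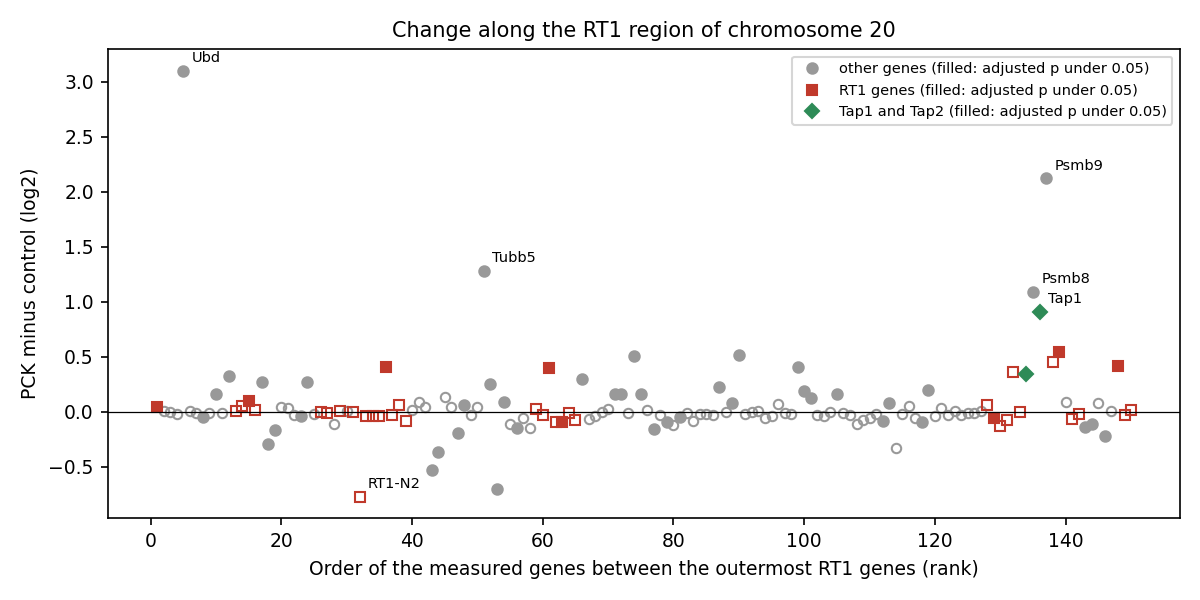
Change (PCK minus control, log2) of the 150 measured genes between the outermost RT1 genes, by their order on chromosome 20 as rank; red squares are RT1 genes, green diamonds Tap1 and Tap2 and grey circles the others, and filled points have a limma adjusted p under 0.05. Tap1 rises with Psmb8 and Psmb9 beside it, and the RT1 points lie between -0.77 (RT1-N2) and 0.54 (RT1-DMa).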

How the data were processed

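Frozen pieces of 12 livers gave total RNA, which was turned into biotin-labelled cRNA for Affymetrix arrays, per the labels' protocols. The authors deposited 1 table of 19239 probe sets whose values are taken as log2 signals (5.14 to 13.98, none negative); the sources used here name neither the array type nor the summarisation. The sorted values of all 12 columns are identical, so the authors' processing gave every array 1 distribution, which removes any difference in total RNA. No detection calls were used; the median of the table, 5.66, served as a mark for low signal. Correlations between arrays were 0.994 to 0.997 within control, 0.996 to 0.998 within PCK and 0.976 to 0.986 between groups. The number of arrays limits the precision.

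The platform annotation named 16592 probe sets, 1 symbol each, and gave none for 2647; membership used these symbols. For gene lists, 3326 older symbols were updated through RefSeq (GRCr8). All named genes were fitted with limma 3.58.1 in R 4.3.3 (lmFit, eBayes, 2-sided, Benjamini-Hochberg, threshold 0.05, no filter); SE is the moderated SE. The fit was tested on simulated data. Replicate numbers did not pair the livers. The lowest, median and highest values of each group are given for the loading genes, and the value of every liver for RT1 genes with 2 levels. The plan also named RT1 genes with a called change of 1 log2 unit, but no RT1 gene had such a change. Ranges of other RT1 genes were added after their values were seen. Up to 3 called genes were named from each list. The members and lists were chosen with earlier results of these data known. A comparison of RT1 proteins was not made. Alternatives were centring, a filter on dim genes, unnamed probe sets, trend and robust eBayes, array weights, the replicate block, thresholds and leaving out each liver; a shift by the median deviation of the brightest 25% of genes was added after the data were seen. Figures used matplotlib 3.10.9 in Python 3.11.15. P-values measure the spread between these animals, which the labels call biological replicates.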

Additional observations from a re-analysis of the deposited data

Results flagged for a closer look

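Of 100 groups of 6 livers, 50 genes in each of the 2 conditions, 10 held a liver whose distance to its nearest neighbour exceeded the critical share of the range (Dixon's test, 0.625 for 6 values). Chance alone gives about 1 in 20 where the values are normal and the groups independent. The 100 groups come from the same 12 livers, and the share of all genes that pass this rule was not computed. The 10 are therefore not read as an excess. In 7 of the 10 flagged groups the liver was high and in 3 low. Of these 10 groups 5 were of genes with low signal. Among brighter ones, RT1-S3 was 9.59 in control 2, where the 5 others were 10.11 to 10.38. Calr was 12.17 in control 5 against 12.49 to 12.63, and Cd1d1 was 7.94 in control 5 against 7.39 to 7.57. RT1-Da was 9.89 in PCK 6 against 8.88 to 9.25, and RT1-CE7 was 6.60 in PCK 5 against 6.36 to 6.42. At low signal, RT1-Ha was 5.47 in control 5 and 5.37 in PCK 1, RT1-M1-2 was 5.35 in control 5, RT1-M5 was 5.47 in PCK 3 and RT1-T18 was 5.44 in PCK 3, all steps of under 0.1 log2 units.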

How the results depend on the processing

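Of 28 genes given singly 15 were called, and 10 of the 15 were called in each of 17 refits (scaling, variance settings, array weights, block, 1 liver left out); the dim filter, unnamed probe sets and thresholds were applied to counts only. Higher RT1 genes numbered 6, but 1 at an adjusted p threshold of 0.01, 0 at 1.5-fold or more, and 2 to 7 without 1 liver. Lower RT1 genes numbered 2, but 1 with the dim filter, with the replicate block, with the shift chosen after seeing the data or at 0.01, 0 at 1.5-fold or more, and 1 to 3 without 1 liver. Higher loading genes numbered 7, 4 of them at 1.5-fold or more, and 7 to 9 without 1 liver; lower ones numbered 0 to 1. RT1 genes with 2 levels numbered 4 with a gap of 0.5, 1 with a gap of 2 or of over 75% of the range, and 1 to 2 without 1 control (1 without control 2). Among all genes 2882 were higher and 3480 lower; the shift gave 4361 higher, 0.01 gave 2168 lower, and 1.5-fold gave 445 and 323; without 1 liver they were 2679 to 2880 and 3014 to 3487. The shift moved the median change of all genes from -0.0067 to 0.016. Uncalled changes near 0 turned in sign: RT1-A2 with array weights (0.022) and, without 1 liver, RT1-A1 (-0.045 to 0.073), RT1-A2 (-0.079 to 0.078), RT1-Ba (-0.21 to 0.028), RT1-Da (-0.11 to 0.17) and B2m (-0.00072 to 0.024). Same-numbered livers did not deviate together (correlations -0.14 to 0.16), so the block has no basis in the design; under it RT1-A3 (limma adjusted p = 0.12), RT1-CE3 (0.071) and RT1-M3-1 (0.092) were not called and RT1-DMb was (0.040), and all genes gave 2609 higher and 2814 lower. The causes were not tested. Low signal limits 19 of the 50 genes.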
